A study of Homo sapiens with 9 samples.

Results

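The Argonaute genes AGO1, AGO2, AGO3 and AGO4 and the TNRC6 genes TNRC6A, TNRC6B and TNRC6C encode the core of the complex through which microRNAs silence mRNAs. They were taken by their Ensembl gene IDs, which makes 7 of the 19569 IDs in a table of ribosome footprint counts, and the rule uses no measured value, although it was set with earlier results of these data known. The footprints came from 9 libraries of the human cell line Jurkat Clone E6-1, T lymphoblasts that serve as a common model of signalling through the T cell receptor. The groups were resting cells without stimulation (0 h) and cells stimulated for 5 h or 12 h, with 3 biological replicates each according to the labels. Stimulated cells were kept on plates coated with anti-CD3 antibody (10 µg/mL) in medium with anti-CD28 antibody (5 µg/mL), and resting cells served as the control. No unstimulated cells at 5 h or 12 h are among the libraries, so stimulation and time in culture cannot be told apart. All 3 groups are of 1 leukaemia-derived line, and no other cell type is in the series.

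Argonaute proteins hold a microRNA and use it to find complementary sites in mRNAs. TNRC6 proteins, also called GW182 proteins, bind Argonaute through glycine-tryptophan repeats and recruit the deadenylases CCR4-NOT and PAN2-PAN3, which leads to repression of translation and mRNA decay. In mouse T cells, activation has been reported to lower Argonaute protein through the proteasome, so the amount of a protein and the rate at which it is made can part. Ribosome footprints, the mRNA fragments covered by ribosomes, speak to the making, and their count depends on mRNA abundance as well as on ribosome occupancy. In bulk libraries such as these, fewer cells making a protein and less made per cell cannot be told apart, and mRNA values were not used here.

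The libraries held 4343515 to 18506509 footprint counts, and the shallowest was replicate 2 at 12 h. Levels are given as CPM, the count as a share of the library after scaling with TMM factors (trimmed mean of M-values), so every rise or fall is relative to the other footprints of the library. All 7 genes passed the filter on low counts. Their counts ran from 95 (AGO4 in 12 h replicate 2) to 1881 (AGO2 in 5 h replicate 3), and by their mean CPM they lay between the 52.4 and 75.8 percentiles of the 13920 IDs tested. CPM are not divided by coding length, so these percentiles depend on length as well as on expression. The level of a gene is compared with its own level in other groups. Sums, shares and ratios of members, given below, are likewise compared only across groups. The deposited IDs are not paired with gene symbols, so marker genes of T cells and of activation, and the other genes of the microRNA pathway, were not analysed here.

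**Figure D1:**
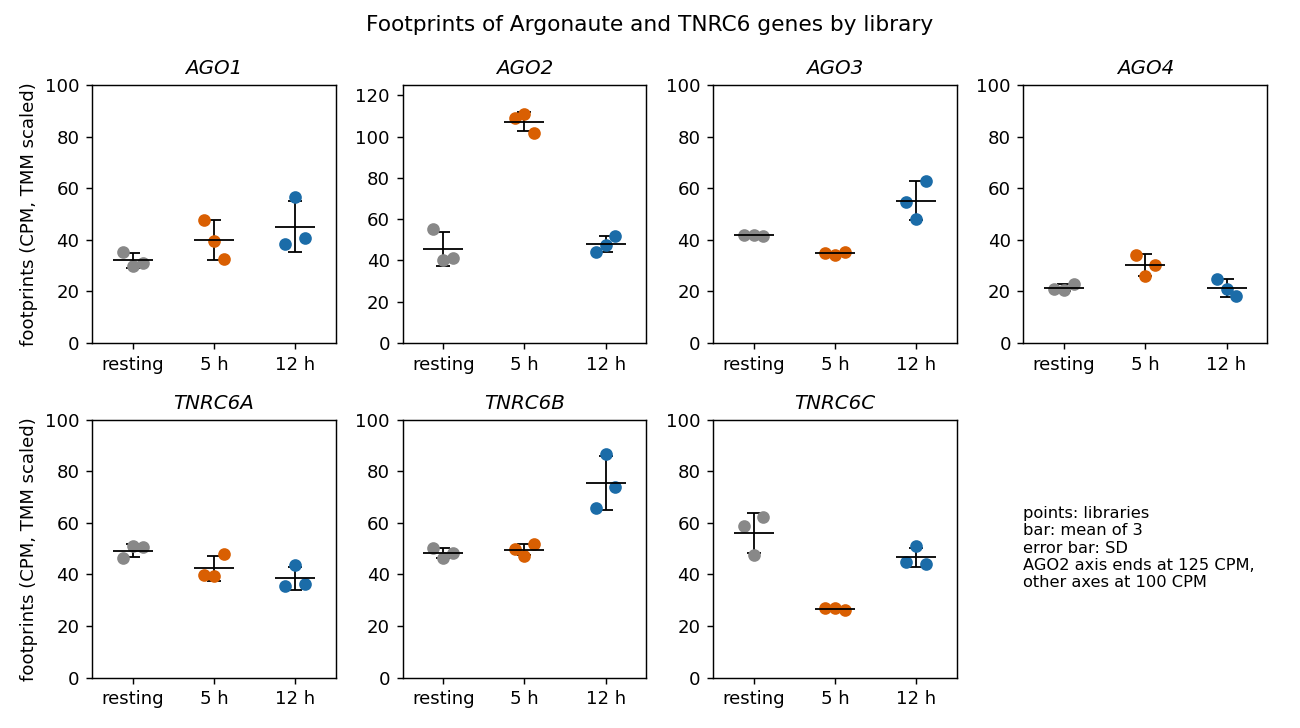
Footprints of each Argonaute and TNRC6 gene in CPM (y axis) in resting, 5 h and 12 h libraries (x axis), with points for libraries, bars for the mean of 3 and error bars for the SD. The AGO2 libraries at 5 h, at 102 to 111 CPM, stand above all others of that gene, and the TNRC6C libraries at 5 h, at 26.2 to 27.0 CPM, stand below.

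At 5 h of activation, against resting cells, the largest changes in the group were a rise of AGO2 and a fall of TNRC6C, with a smaller rise of AGO4. These were the calls made: 2 genes were higher and 1 lower of the 7, at an adjusted p under 0.05. Over all 13920 tested IDs, 16.0% were called higher and 18.4% lower at 5 h, 34.5% in all, so 3 of 7 is close to the share among all genes. The median log2 fold change was 0.40 for the 4 Argonaute genes and -0.22 for the 3 TNRC6 genes, beside 0.07 for all tested IDs. The TNRC6 median is the value of TNRC6A, which was not called.

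AGO2 (ENSG00000123908.12) encodes the main Argonaute able to cut a target with full complementarity, and the one whose loss is lethal to mouse embryos. Its footprints were 55.0, 40.3 and 41.4 CPM at rest, 109, 111 and 102 CPM at 5 h, and 44.1, 47.4 and 51.9 CPM at 12 h. All 5 h libraries lay far above every other library, while the 12 h and resting libraries overlapped. At 5 h AGO2 was 2.36-fold higher than at rest, a log2 fold change of 1.24 ± 0.12 (SE, n = 3 per group) and its adjusted p was 3.85e-08 (quasi-likelihood test of edgeR, adjusted over all tested IDs after Benjamini and Hochberg, as for every edgeR value given here). That placed it at the 89.5 percentile of the log2 fold changes of all tested IDs, with 1456 IDs above it. By 12 h the difference from rest was 0.07 ± 0.13 on the log2 scale, with a 95% interval from -0.20 to 0.34 and an edgeR adjusted p of 0.722.

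TNRC6C (ENSG00000078687.17), a member of the family able to bind Argonaute and the deadenylases, moved the opposite way at 5 h. It measured 58.8, 47.5 and 62.3 CPM at rest, 27.0, 26.9 and 26.2 CPM at 5 h, and 44.9, 50.9 and 43.9 CPM at 12 h. The 5 h libraries were nearly equal to each other and below every library of the other times. At 5 h the log2 fold change against rest was -1.08 ± 0.13 (SE), with an edgeR adjusted p of 8.46e-07, and only 361 of the 13920 tested IDs had a lower value. At 12 h its level averaged 46.6 ± 3.79 CPM, against 56.2 ± 7.72 CPM at rest (SD, n = 3 each), and the difference of -0.28 ± 0.13 (log2, SE) missed the threshold in edgeR, with an adjusted p of 0.112. Without resting replicate 2, the lowest of the resting libraries, it passed, at -0.39 with an edgeR adjusted p of 0.0284, and over all alternatives that p ran from 0.0284 to 0.330. In the RefSeq annotation TNRC6C overlaps the neighbouring gene TMC6, as AGO2 overlaps 1 other protein-coding listing, and the sources used here do not say whether the authors' counting used strand.

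AGO4 (ENSG00000134698.11) encodes an Argonaute without cutting activity, and in mice Ago4 is needed for normal meiosis of male germ cells. Its footprints were 20.9, 20.4 and 23.0 CPM at rest, 34.2, 25.7 and 30.4 CPM at 5 h, and 24.9, 20.8 and 18.1 CPM at 12 h. All 5 h libraries lay above all others, by a narrow gap between 25.7 CPM at 5 h and 24.9 CPM at 12 h. AGO4 was 1.40-fold higher at 5 h than at rest, with a log2 fold change of 0.49 ± 0.17 (SE) and an edgeR adjusted p of 0.0251. The call did not survive the loss of resting replicate 1, resting replicate 2, 5 h replicate 1 or 5 h replicate 3, with edgeR adjusted p-values of 0.0746, 0.0736, 0.120 and 0.0872, within a range from 0.0125 to 0.120 over all alternatives. At 12 h the log2 difference from rest was near 0, with a 95% interval from -0.36 to 0.35 and an edgeR adjusted p of 0.996.

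The other 4 genes were not called at 5 h. AGO1 averaged 39.9 ± 7.71 CPM at 5 h and 32.0 ± 2.85 CPM at rest (SD, n = 3 each), and its 5 h libraries spread widely, from 32.4 to 47.8 CPM. AGO3 averaged 34.7 ± 0.688 CPM at 5 h and 41.8 ± 0.421 CPM at rest. Every AGO3 library at 5 h lay below every resting one, yet its log2 difference of -0.27 ± 0.13 (SE) had an edgeR adjusted p of 0.112. Groups without overlap were seen for 4 of the 7 genes at 5 h and for 45.7% of all tested IDs. TNRC6A averaged 42.3 ± 4.80 CPM at 5 h and 49.3 ± 2.61 CPM at rest. TNRC6B averaged 49.7 ± 2.29 CPM at 5 h and 48.2 ± 1.85 CPM at rest, and the 95% interval of its log2 difference, from -0.21 to 0.29, leaves out changes of the size seen for AGO2 and TNRC6C.

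**Figure D2:**
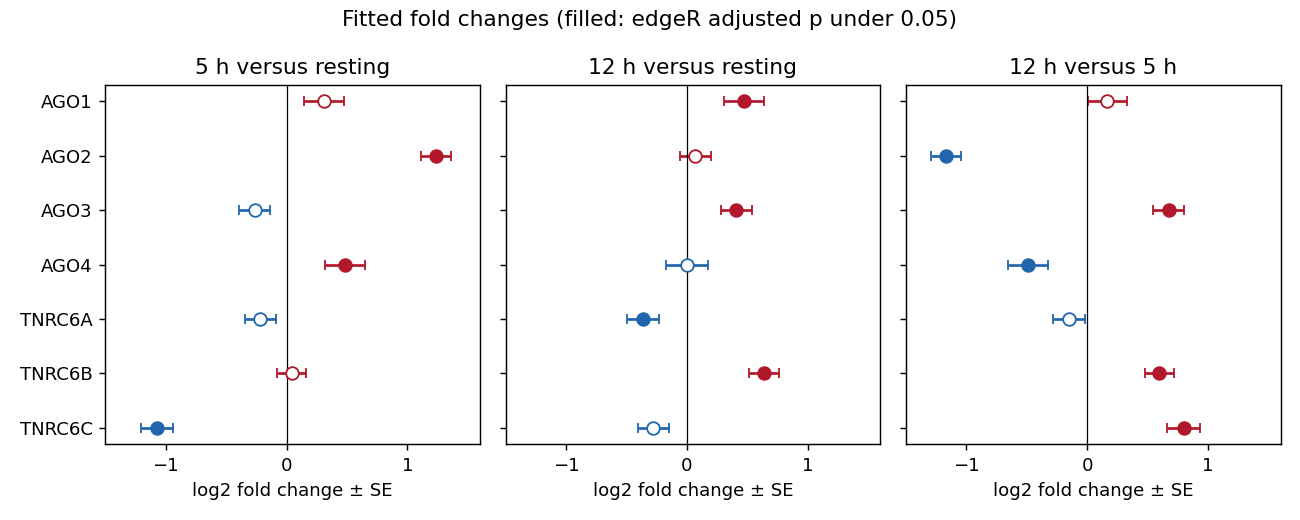
Log2 fold changes (x axis, with SE as error bars) of the 7 genes (y axis) in the 3 comparisons, from edgeR's fit of all 9 libraries. Filled points mark an adjusted p under 0.05: AGO2, AGO4 and TNRC6C at 5 h, AGO1, AGO3, TNRC6A and TNRC6B at 12 h against rest, and AGO2, AGO3, AGO4, TNRC6B and TNRC6C at 12 h against 5 h.

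At 12 h, against resting cells, TNRC6B rose, AGO3 and AGO1 rose by less, and TNRC6A fell. In edgeR, 3 genes were called higher and 1 lower of the 7, beside 15.8% of all tested IDs called higher and 19.3% called lower, 35.1% in all. Groups without overlap were seen for 4 of the 7 genes, the same 4 that were called, and for 45.8% of all tested IDs. The comparisons of 5 h and 12 h with rest share the resting libraries, and the 2 times were also tested against each other. In that test AGO3 and TNRC6B differed between the times, but AGO1 (log2 fold changes against rest of 0.31 at 5 h and 0.47 at 12 h) and TNRC6A (-0.22 and -0.36) did not pass, with edgeR adjusted p-values of 0.531 and 0.490. The median log2 fold change at 12 h was 0.24 for the Argonaute genes and -0.28 for the TNRC6 genes, beside 0.04 for all tested IDs. The TNRC6 median is the value of TNRC6C, which was not called, while TNRC6B was called higher at 0.64, so it does not describe a fall of the whole family.

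TNRC6B (ENSG00000100354.21), which like its relatives couples Argonaute to the deadenylases, had the clearest late rise. Its footprints were 50.1, 46.4 and 48.2 CPM at rest, 49.8, 47.3 and 51.9 CPM at 5 h, and 66.0, 86.8 and 74.1 CPM at 12 h. Resting and 5 h libraries were mixed within a narrow band, and all 12 h libraries lay above it. TNRC6B was 1.56-fold higher at 12 h than at rest, with a log2 fold change of 0.64 ± 0.12 (SE) and an edgeR adjusted p of 0.000214. Its highest level, 86.8 CPM, was in 12 h replicate 2, the shallowest library. Without that library the log2 fold change was 0.52, the lowest over all alternatives, and was still called, with an edgeR adjusted p of 0.00415.

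AGO3 (ENSG00000126070.20), which can bind the same microRNAs as its relatives, had its lowest levels at 5 h and its highest at 12 h. It measured 42.0, 42.0 and 41.3 CPM at rest, 34.8, 34.0 and 35.3 CPM at 5 h, and 54.8, 47.9 and 62.9 CPM at 12 h. The 3 times did not overlap at all. Against rest, the 12 h log2 fold change was 0.41 ± 0.13 (SE) with an edgeR adjusted p of 0.0156. Without resting replicate 3 or 12 h replicate 3 the call was lost, with edgeR adjusted p-values of 0.0536 and 0.140, within a range from 0.00296 to 0.140 over all alternatives.

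AGO1 (ENSG00000092847.13), an Argonaute that silences without cutting in most settings, measured 35.2, 29.7 and 31.1 CPM at rest, 47.8, 39.4 and 32.4 CPM at 5 h, and 38.2, 56.4 and 40.5 CPM at 12 h. All 12 h libraries exceeded all resting ones, and the 5 h libraries reached into both groups. The log2 fold change at 12 h was 0.47 ± 0.17 (SE), with an edgeR adjusted p of 0.0285. The shallowest library, 12 h replicate 2, had the highest level, and without it the value was 0.28 with an edgeR adjusted p of 0.226. The call was also lost without resting replicate 2 or 3 and in limma on the authors' log2 values, with adjusted p-values of 0.0896, 0.0864 and 0.0695, within a range from 0.00966 to 0.226 over all alternatives.

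TNRC6A (ENSG00000090905.19), the founding GW182 protein, first known as an autoantigen of cytoplasmic P bodies, fell at 12 h. It measured 46.3, 50.9 and 50.7 CPM at rest, 39.6, 39.4 and 47.9 CPM at 5 h, and 35.6, 43.7 and 36.4 CPM at 12 h. The 12 h libraries were all below the resting ones, while the 5 h libraries overlapped with both. At 12 h the log2 fold change was -0.36 ± 0.13 (SE), with an edgeR adjusted p of 0.0384. Of the 14 alternatives 7 lost this call, among them the removal of resting replicate 2, resting replicate 3, 12 h replicate 1 or 12 h replicate 3. The adjusted p ran from 0.0218 to 0.142 over all of them.

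AGO4, AGO1 and AGO3 are consecutive protein-coding genes on chromosome 1 in the RefSeq annotation, and their mean levels ran differently: AGO4 was highest at 5 h, AGO3 was lowest at 5 h, and AGO1 lay above rest at both times. Over the 9 libraries the log2 CPM of AGO1 and AGO3 had a Pearson correlation of 0.17. It was 0.09 for AGO1 and AGO4 and -0.70 for AGO3 and AGO4. To let the starts of the 3 genes called higher at 12 h against rest be compared, the 250 bases before the RefSeq start site of each are given here from GRCh38.p14, 5′ to 3′ on the plus strand, with GC boxes (GGGCGG) and CCAAT boxes (CCAAT) in capitals on either strand, where they read CCGCCC and ATTGG when reversed. The windows lie at chr1:35882959-35883208 for AGO1, chr1:35930855-35931104 for AGO3 and chr22:40044584-40044833 for TNRC6B.
AGO1: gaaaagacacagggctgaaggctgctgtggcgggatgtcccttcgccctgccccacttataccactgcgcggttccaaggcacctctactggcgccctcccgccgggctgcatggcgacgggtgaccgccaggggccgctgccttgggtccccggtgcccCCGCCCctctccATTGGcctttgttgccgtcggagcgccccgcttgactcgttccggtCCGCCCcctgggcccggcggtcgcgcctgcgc
AGO3: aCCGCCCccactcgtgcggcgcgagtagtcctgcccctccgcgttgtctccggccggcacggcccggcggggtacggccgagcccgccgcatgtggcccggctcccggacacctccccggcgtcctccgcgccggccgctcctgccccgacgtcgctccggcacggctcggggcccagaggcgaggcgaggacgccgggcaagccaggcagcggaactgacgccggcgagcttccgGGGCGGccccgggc
TNRC6B: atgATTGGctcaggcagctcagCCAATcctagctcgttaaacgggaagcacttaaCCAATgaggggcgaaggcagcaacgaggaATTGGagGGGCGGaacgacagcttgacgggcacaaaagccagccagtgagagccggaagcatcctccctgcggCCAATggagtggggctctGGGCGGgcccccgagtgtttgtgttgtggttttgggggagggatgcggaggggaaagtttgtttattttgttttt

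The AGO1 and AGO3 windows are rich in G and C, at 71.6% and 80%, while the TNRC6B window is at 56.4%. Each of the 3 holds 2 GC boxes. At least 1 GC box is present in 42.6% of 35116 RefSeq windows of the same length, and the share with 2 or more was not computed. Among the genes not called higher at 12 h, the window of AGO4 holds none, that of TNRC6A 1, and the 4 windows of TNRC6C 0, 2, 0 and 1. AGO2, also not called higher then, had no window to search. CCAAT occurs 5 times in the TNRC6B window, 1 time each in those of AGO1 and TNRC6A, 2 times in 1 window of TNRC6C, and not in the other windows, those of AGO3 and AGO4 included. At least 1 CCAAT is found in 32.0% of all windows, and 5 or more in 0.319%, a count chosen after the TNRC6B window was seen. The CRE core TGACG, in 21.2% of all windows, occurs 1 time each in the AGO3 and TNRC6B windows and in 1 window of TNRC6C. The NFAT core GGAAA, in 55.6% of all windows, occurs 1 time in the TNRC6B window, 2 times in that of AGO4, and 2 times and 1 time in 2 windows of TNRC6C. The AP-1 motif TGANTCA, in 6.57% of all windows, is in none of the windows of these 6 genes. The ETS core CCGGAAG, in 8.52% of all windows, occurs 1 time each in the AGO3, TNRC6A and TNRC6B windows. The E-box CACGTG, in 6.34% of all windows, occurs 1 time, in 1 window of TNRC6C. All motifs were searched on both strands and only as these letters, so a match or its absence describes the window and nothing further.

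Between 5 h and 12 h, a comparison that uses no resting library, 5 of the 7 genes were called: AGO3, TNRC6B and TNRC6C rose and AGO2 and AGO4 fell. Over all tested IDs 11.6% were called higher and 13.5% lower, 25.1% in all. The libraries of these 5 genes did not overlap between the times, as was true of 39.1% of all tested IDs. AGO2 averaged 47.8 ± 3.94 CPM at 12 h and 107 ± 4.63 CPM at 5 h (SD, n = 3 each). Its log2 difference was -1.17 ± 0.13 (SE), with an edgeR adjusted p of 2.04e-07, and 644 of the 13920 IDs fell further. TNRC6C averaged 46.6 ± 3.79 CPM at 12 h and 26.7 ± 0.430 CPM at 5 h. It was 1.74-fold higher at 12 h, at 0.80 ± 0.13 (log2, SE) with an edgeR adjusted p of 8.30e-05.

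AGO3 averaged 55.2 ± 7.55 CPM at 12 h and 34.7 ± 0.688 CPM at 5 h, a log2 difference of 0.67 ± 0.13 (SE) with an edgeR adjusted p of 0.000302. TNRC6B averaged 75.6 ± 10.5 CPM at 12 h and 49.7 ± 2.29 CPM at 5 h, a difference of 0.60 ± 0.12 with an edgeR adjusted p of 0.000579. AGO4 averaged 21.3 ± 3.44 CPM at 12 h and 30.1 ± 4.24 CPM at 5 h. Its difference of -0.49 ± 0.17 (log2, SE) had an edgeR adjusted p of 0.0344. That call was lost without 5 h replicate 1 or 3 and without 12 h replicate 2 or 3, with adjusted p-values up to 0.165. AGO1 and TNRC6A were not called, at 0.17 ± 0.16 and -0.15 ± 0.13 (log2, SE), and leaving out 1 library moved these values to between -0.018 and 0.31 for AGO1 and between -0.24 and -0.019 for TNRC6A.

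**Figure D3:**
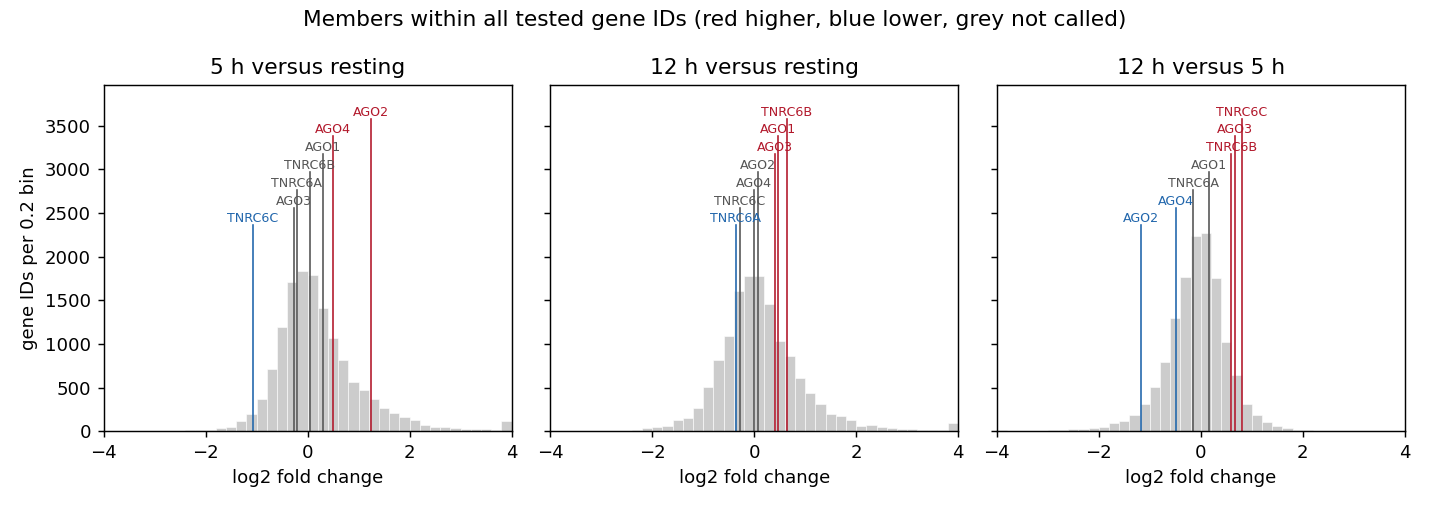
Number of tested gene IDs (y axis, bins of 0.2, end bins holding all values beyond 4) by log2 fold change (x axis) in the 3 comparisons, with lines for the 7 genes in red where called higher, blue where called lower and grey where not called. AGO2 and TNRC6C lie in opposite flanks at 5 h, at the 89.5 and 2.59 percentiles, and in exchanged flanks for 12 h against 5 h, at the 4.63 and 94.6 percentiles.

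Counts of members within a library can be set against each other without any scaling of libraries. Of the footprints of the 4 Argonaute genes, AGO2 took 32.2% ± 3.22 in resting cells, 50.7% ± 2.27 at 5 h and 28.2% ± 1.49 at 12 h (SD over 3 libraries). The share of AGO3 was 29.8% ± 2.19 at rest, 16.4% ± 1.14 at 5 h and 32.6% ± 4.38 at 12 h. In each 5 h library AGO2 thus had a larger share, and AGO3 a smaller one, than in any library of the other times. Within the TNRC6 genes, TNRC6B held 31.4% ± 1.31 at rest, 41.9% ± 0.819 at 5 h and 46.9% ± 1.68 at 12 h. TNRC6C held 36.4% ± 3.18, 22.5% ± 1.53 and 29.1% ± 1.41 at the same times, and TNRC6A 32.1% ± 2.74, 35.6% ± 2.12 and 24.0% ± 0.386. TNRC6B gained share at 5 h with no called change of its own, while TNRC6C fell.

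The summed footprints of the 4 Argonaute genes were 141 ± 10.9 CPM at rest, 212 ± 13.0 CPM at 5 h and 169 ± 6.37 CPM at 12 h (SD, n = 3). Those of the 3 TNRC6 genes were 154 ± 8.26, 119 ± 6.45 and 161 ± 18.3 CPM. Every 5 h library was above every library of the other times for the Argonaute sum and below them for the TNRC6 sum. The ratio of Argonaute to TNRC6 counts was 0.987, 0.914 and 0.849 in the resting libraries, 1.94, 1.85 and 1.59 at 5 h, and 1.11, 0.951 and 1.12 at 12 h. The 5 h ratios stood apart from both other groups, and those of 12 h and rest overlapped. By arithmetic, the shift at 5 h lay mainly in AGO2 and TNRC6C, the members with the largest changes at that time. Leaving out members picked from these same libraries had to shrink the shift. The values that follow therefore only describe its make-up. Without AGO2 the Argonaute sum was 105 ± 10.5 CPM at 5 h and 95.2 ± 2.98 CPM at rest, and without TNRC6C the TNRC6 sum was 92.0 ± 6.85 CPM at 5 h and 97.5 ± 1.26 CPM at rest (SD, n = 3 each). With both left out, the ratio was 1.31, 1.14 and 0.984 in the 5 h libraries and 1.02, 0.947 and 0.964 in the resting libraries, which overlap. These are ratios of counts, not of proteins or of levels per length, and a sum over chosen genes was given no test.

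**Figure D4:**
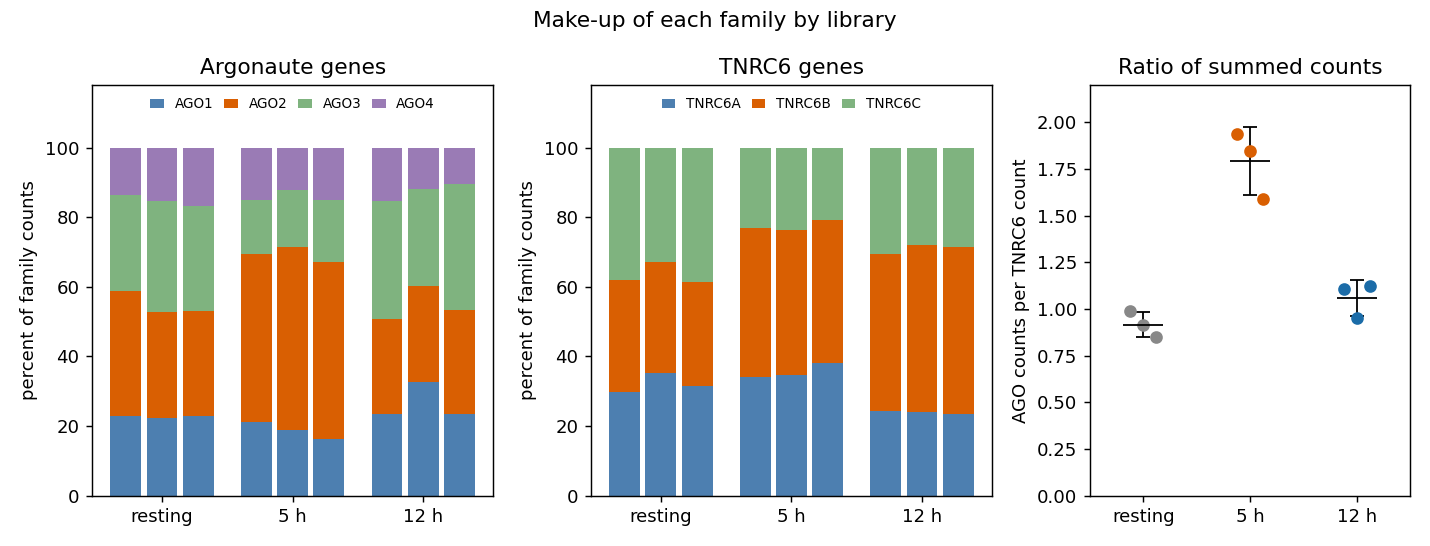
Percent of the family's footprint counts taken by each Argonaute gene and each TNRC6 gene in every library (stacked bars, y axis from 0), and Argonaute counts per TNRC6 count by library (points, with mean and SD of 3). The AGO2 part averages 50.7% at 5 h, and the 5 h ratios of 1.59 to 1.94 lie above all others.

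Single members were set against each other in the same way. Per AGO3 count there were 3.09 ± 0.189 AGO2 counts at 5 h and 1.09 ± 0.192 at rest (SD, n = 3 each), with no overlap. Per TNRC6C count there were 4.02 ± 0.114 AGO2 counts at 5 h and 0.816 ± 0.138 at rest, the widest shift of the 5 ratios examined. This ratio pairs the member most raised at 5 h with the member most lowered. Per TNRC6A count there were 1.96 ± 0.0957 TNRC6B counts at 12 h and 0.982 ± 0.0897 at rest, again with no overlap. Each of these differences had a two-sided exact permutation p of 0.1 on the log2 ratio, the smallest that 3 against 3 libraries can give. After Benjamini-Hochberg adjustment over the 15 tests of 5 ratios in 3 comparisons it was 0.115. The test therefore could not pass 0.05. Most of the 15 tests gave this same p, so the ratios named here do not stand out by it.

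Across the 9 libraries, the log2 CPM of AGO2 and TNRC6C had a Pearson correlation of -0.91, the most negative of the 21 pairs, and the most positive was 0.76 for AGO2 and AGO4. These values describe 3 groups of libraries that stand apart, and they share depth and scaling. Among 10242 IDs averaging at least 4 CPM, those most like AGO2 over the 9 libraries were ENSG00000196460.14 (r = 0.99) and ENSG00000163734.4 (r = 0.98), and those most like TNRC6C were ENSG00000136059.14 and ENSG00000074800.16 (both r = 0.98). ENSG00000163734.4 averaged 21.1 CPM at 5 h and 0.962 CPM at rest, a log2 fold change of 4.45, so an alike course does not mean an alike size. ENSG00000074800.16 averaged 1312 CPM at 5 h and 1957 CPM at rest, a log2 fold change of -0.58. For the other 5 genes the most alike IDs reached correlations of 0.95 to 0.98.

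**Figure D5:**
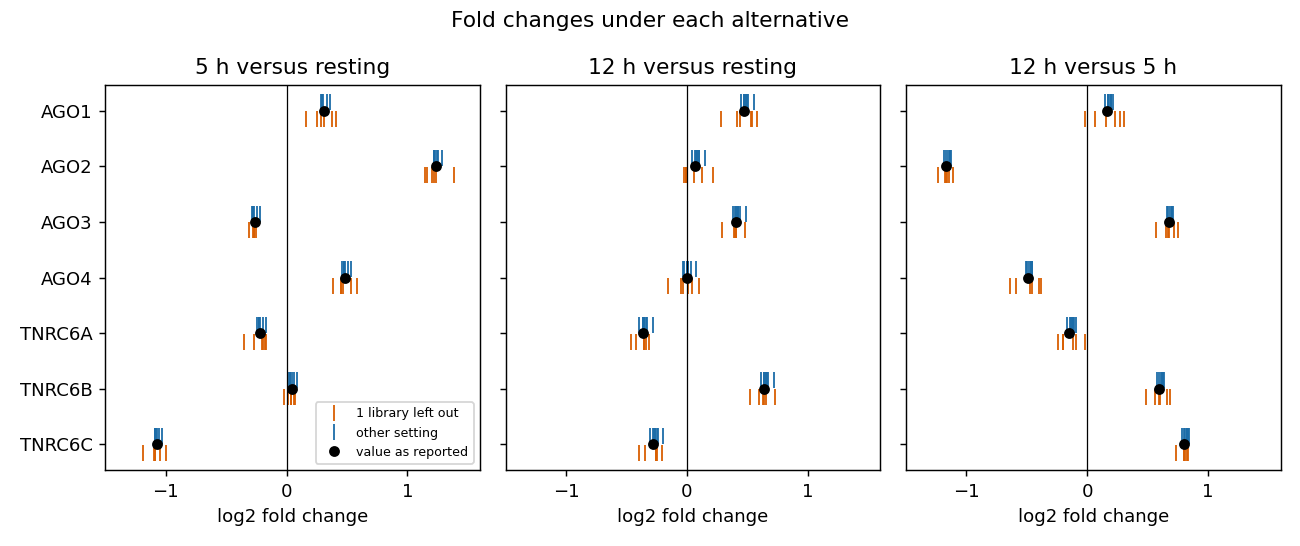
Log2 fold changes (x axis) of the 7 genes (y axis) as reported (black points), with 1 library left out (orange ticks) and under 8 other settings (blue ticks), for the 3 comparisons. AGO2 at 5 h stays between 1.15 and 1.39 and TNRC6B at 12 h against rest between 0.52 and 0.73, while AGO4 at 12 h falls on both sides of 0.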

How the data were processed

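The members and lists were chosen with earlier results of these data known. Ribosome footprints of 9 libraries were deposited by the authors as whole-number counts per Ensembl gene ID, not normalized, and as a table of log2 values of the same libraries. The submitters' processing notes list the genome build GRCh38.p13 and the tools RSEM, DESeq2, Bowtie, bedtools and cutadapt 3.2. The sources used here do not give the role of each, the annotation release or the treatment of fragments matching several genes, so fragments shared by near-identical stretches of AGO1 to AGO4 or of TNRC6A to TNRC6C could be split between them. Checked against the counts, the deposited log2 values equal log2 of the count over 1 factor per library plus 1, differing by at most 5.03e-09.

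All 9 libraries, grouped by their labels, entered 1 fit in edgeR 4.0.16 (R 4.3.3), with TMM scaling, filterByExpr (13920 IDs kept), the quasi-likelihood test and Benjamini-Hochberg adjustment within each comparison over all IDs tested. An ID was called at an adjusted p under 0.05. The common biological coefficient of variation was 15.6%. These steps were also run on simulated counts, in which far fewer IDs changed than were called here and all IDs had the same spread. That run therefore does not show how many of the calls given here are right. The labels call the replicates biological without saying which cultures they came from. Alternatives were other scaling, other filters, DESeq2 1.42.0, limma 3.58.1 on the deposited log2 values, the 6 libraries compared alone, replicate number as a block, and each library left out in turn.

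Symbols of the 7 members were given with their IDs. All 7 were named whatever their values, and for each the 2 IDs with the most alike course were looked for, of which 4 are printed. Other gene lists and cell type markers had been set by symbol and could not be matched to IDs, so they were not analysed here. Promoter windows are from RefSeq (GRCh38.p14), matched by symbol for 6 of the 7 genes, all but AGO2. Levels per coding length were not computed.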

Additional observations from a re-analysis of the deposited data

Results flagged for a closer look

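For 5 of the 7 genes the level at 12 h differed from that at 5 h, tested directly with edgeR as 12 h against 5 h. Of all tested IDs, 25.1% were called in this comparison. The difference in log2 fold change was -1.17 for AGO2, 0.67 for AGO3, -0.49 for AGO4, 0.60 for TNRC6B and 0.80 for TNRC6C. All 5 had no overlap between 12 h and 5 h libraries, as had 39.1% of all tested IDs. The call of AGO4 was lost under 5 of the 14 alternatives.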

How the results depend on the processing

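Of the 21 log2 fold changes (7 genes in 3 comparisons), 12 were called, and 7 of these held under all 14 alternatives: AGO2 and TNRC6C at 5 h against rest, TNRC6B at 12 h against rest, and AGO2, AGO3, TNRC6B and TNRC6C at 12 h against 5 h. The other 5 lost the call when some single library was left out, and some of them also under another setting. The cause was not tested. The counts of all IDs called stayed within 1.5 times under every alternative.

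Against rest at 12 h, no member was called lower with upper quartile scaling, with at least 50 counts in 3 libraries, or by limma on the authors' log2 values (0 each, where 1 had an unadjusted p under 0.05). TNRC6A then stood at -0.33, -0.28 and -0.34, with adjusted p-values of 0.0531, 0.0795 and 0.0657; DESeq2 called it. By limma AGO1 at 12 h was 0.49 (adjusted p 0.0695), and for 12 h against 5 h AGO4 was -0.46 (adjusted p 0.0582), which left 1 member called lower. AGO4 at 12 h against rest, near 0 as reported, was 0.011 with RLE scaling, 0.031 with upper quartile scaling, 0.079 with at least 50 counts, 0.011 by DESeq2 and 0.0004 by limma.

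With 1 library left out, the members called at 5 h were 1 to 2 higher and 1 lower. At 12 h against rest they were 1 to 3 higher and 0 to 1 lower, and at 12 h against 5 h 3 higher and 1 to 2 lower. At 5 h AGO1 ran from 0.16 to 0.41, AGO4 from 0.39 to 0.58, TNRC6A from -0.35 to -0.17 and TNRC6B from -0.025 to 0.071. At 12 h against rest AGO1 ran from 0.28 to 0.58, AGO2 from -0.022 to 0.21, AGO3 from 0.29 to 0.48, AGO4 from -0.16 to 0.10, TNRC6A from -0.47 to -0.32 and TNRC6C from -0.39 to -0.21. At 12 h against 5 h AGO1 ran from -0.018 to 0.31, AGO4 from -0.64 to -0.39 and TNRC6A from -0.24 to -0.019. With plain CPM on total counts the Argonaute sum at 12 h was 179 CPM and the TNRC6 sum at rest 143 CPM.

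Same-numbered libraries did not deviate together, with correlations from -0.06 to 0.07 in 9 pairs. With the replicate block, 2159 IDs were higher and 2485 lower at 5 h, 2114 and 2575 at 12 h, and 1564 and 1809 at 12 h against 5 h, and no member's call changed. Levels scaled by another coding length were not run. The lowest count of a member was 95, for AGO4 in the shallowest library.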
